A study of Mus musculus with 9 samples.

Results

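Collagens are the proteins that build fibrils, basement membranes and microfibrils outside cells. Their genes were taken here as every protein-coding gene of the count table whose GRCm38 symbol is Col, a number, a and a number, which gave 44 genes of 27 collagen types among 49315 gene IDs. They were measured by bulk RNA-seq in 9 libraries, 3 of each group. The first group was primary neonatal astrocytes of strain C57BL6 (mito::mKate2), in which a red fluorescent protein, mKate2, labels mitochondria. The other groups were SB28 cells, 1 glioblastoma line of C57BL6 origin, sorted without astrocyte mitochondria (mKate2- cells) or with them (mKate2+ cells). All groups were otherwise untreated and shared a co-culture of 2 days in DMEM F12 with 2% FBS, 5% N2 supplement and 20 ng/ml EGF and FGF, so neither cell type was measured on its own. The medium is given as in the labels, and the study's methods state other amounts of FBS and N2. Total counts ran from 24454561 in astrocyte replicate 1 to 39287841 in mKate2+ replicate 2, and collagen genes held 68563 to 253219 counts per library. Per the study's methods all groups were sorted from the same 3 co-cultures, with separate co-cultures behind the libraries of a group, so p values measure the spread between co-cultures.

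Every collagen is a trimer of chains that wind into a triple helix, and each chain has its own gene. Fibril-forming types (I, II, III, V, XI and relatives) make the cross-banded fibrils of connective tissue. Network-forming types include IV, the scaffold of basement membranes, and VIII, while FACIT types sit on fibril surfaces. In the brain, collagen is largely held in vessel basement membranes and in the meninges, and the tissue between cells is poor in fibrils. Glioblastoma is known for collagen around its vessels.

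Collagen genes took a smaller part of the RNA in SB28 cells than in astrocytes. Their share of all counts was 0.733%, 0.774% and 0.658% in the 3 astrocyte libraries, 0.252%, 0.298% and 0.295% in the mKate2- libraries and 0.279%, 0.188% and 0.26% in the mKate2+ libraries. The groups of tumour cells did not overlap with the astrocytes. Astrocytes averaged 0.722% ± 0.0589 (SD, n = 3), which was 2.56 times the mKate2- mean of 0.282% ± 0.0258 and 2.98 times the mKate2+ mean of 0.243% ± 0.0478. An exact two-sided permutation test gave p = 0.1 for each difference from astrocytes, the smallest p that 3 libraries against 3 allow, and p = 0.3 between the tumour cells. In bulk RNA, fewer cells of a type and less RNA per cell cannot be told apart, and this holds for every value given here.

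Fibril-forming and network-forming types made up most of the collagen counts in every group. Network-forming genes gave 40.8% of the collagen counts in astrocytes, 41.2% in mKate2- cells and 41.1% in mKate2+ cells. For fibril-forming genes the figures were 32.5%, 44.2% and 44.5%. FACIT genes supplied 10.3% of the collagen counts in astrocytes, against 1.98% and 1.75% in the tumour cells, and type VII went the other way, at 0.235%, 3.37% and 2.78%.

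**Figure D1:**
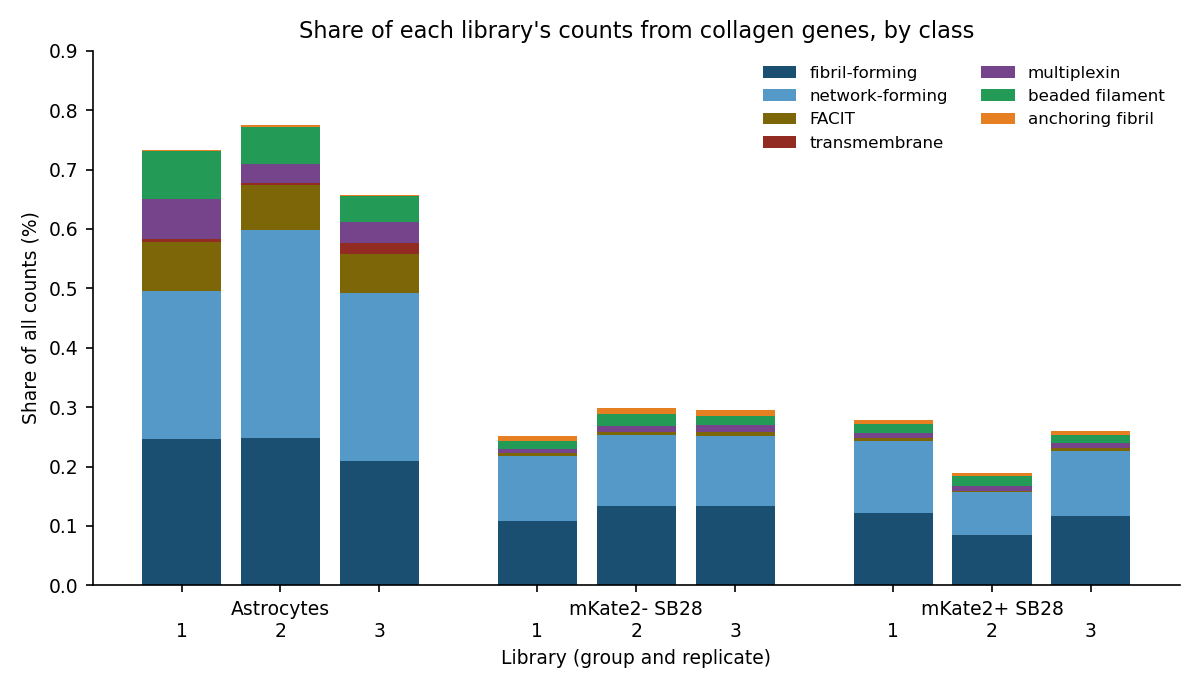
Share of all counts (%) that came from collagen genes in each of the 9 libraries, stacked by class, with an axis from 0. The 3 astrocyte bars reach 0.658% to 0.774%, and the 6 SB28 bars reach 0.188% to 0.298%.

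Each tumour group was compared with astrocytes by edgeR's quasi-likelihood test on genes above 1 CPM (counts of a gene divided by the library's total, scaled to 1e+06) in at least 2 of the 6 libraries. A gene was called when its adjusted p was below 0.05 and its log2 fold change was beyond 1 in either direction. Of the 44 collagen genes, 27 passed the filter. In mKate2- cells 19 of these were lower, 2 were higher and 6 were not called, where 22.4% of all genes tested were called lower and 11.5% higher. In mKate2+ cells 20 were lower, 2 were higher and 5 were not called, against 22.8% lower and 12.2% higher over all genes. The median log2 fold change was -2.53 and -2.73 for the collagen genes tested, and -0.038 and -0.018 for all genes.

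The filter shapes these counts, because a gene that passed through its astrocyte libraries alone had to be low in the tumour cells. There were 9 such collagen genes in each comparison (Col2a1, Col4a6, Col9a1, Col9a3, Col11a2, Col15a1, Col20a1, Col23a1 and Col27a1). Of these, 8 were called lower, where 90.9% of all such genes were called lower in mKate2- and 89.8% in mKate2+ cells. The 18 that passed in both cell types included 11 lower and 2 higher in mKate2- cells, beside 12.9% and 12.1% of all such genes, and 12 lower and 2 higher in mKate2+ cells, beside 13.1% and 13.1%. Their median log2 fold change was -1.64 and -1.81, and that of all such genes was 0.087 and 0.13. With no filter, all 44 were tested in mKate2- cells, of which 24 were lower and 2 higher, beside 15.3% and 6.56% of all genes. The unfiltered test of mKate2+ cells covered 43 of them, with 26 lower and 2 higher, beside 15.2% and 7.06%. The mKate2- libraries were all below the astrocyte libraries for 21 of the 27 genes (37.3% of all genes) and all above for 2 (33.8%). For mKate2+ cells these counts were 22 (37.7%) and 2 (29.4%). Both comparisons use the same astrocyte libraries and are not independent of each other.

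**Figure D2:**
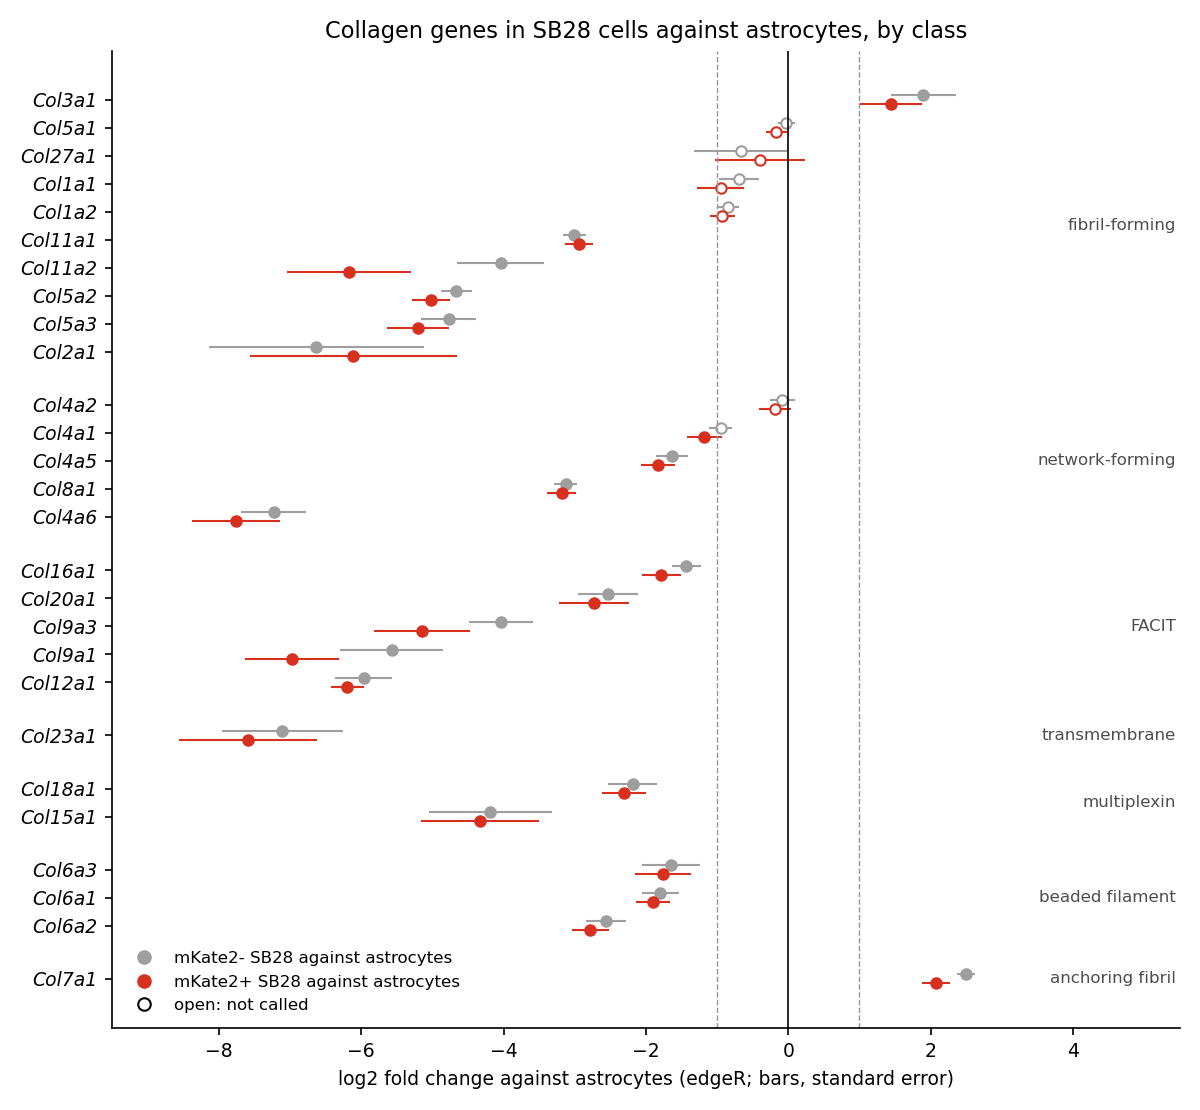
Log2 fold change against astrocytes of the 27 collagen genes tested, grouped by class, in mKate2- (grey) and mKate2+ (red) SB28 cells. Bars are standard errors, open symbols were not called, and dashed lines mark 1 and -1. Col3a1 and Col7a1 are the only genes beyond 1 on the higher side.

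The genes of type I collagen, the main fibril protein, were called in neither comparison. Its 2 genes, Col1a1 and Col1a2, encode chains of the same trimer. Col1a2 (ENSMUSG00000029661, chr6:4504814-4541544 of GRCm38) had the highest mean CPM of the collagen genes in both tumour groups, and in astrocytes only Col8a1 was above it. Its levels were 1023, 1110.3 and 838 CPM in astrocytes, 477, 573 and 589.8 in mKate2- cells and 555, 386 and 549.6 in mKate2+ cells. All tumour libraries lay below all astrocyte libraries. The log2 fold change was -0.84 ± 0.15, adjusted p = 0.00185 in mKate2- cells and -0.93 ± 0.18, adjusted p = 0.00296 in mKate2+ cells. Without astrocyte replicate 3, Col1a2 passed both thresholds in mKate2+ cells, at -1.06. Col1a1 stood at 325, 324 and 151 CPM in astrocytes, 153, 181 and 158 in mKate2- cells and 177, 105 and 113 in mKate2+ cells, so that astrocyte replicate 3 lay among the tumour libraries. It had a log2 fold change of -0.69 ± 0.28, adjusted p = 0.0628 and of -0.95 ± 0.32, adjusted p = 0.036. It passed both thresholds in mKate2+ cells without astrocyte replicate 3, at -1.26, and without mKate2+ replicate 1, at -1.20. Both genes also passed them in mKate2+ cells under upper-quartile scaling, at -1.03 for Col1a2 and -1.05 for Col1a1, and with 10 counts required in every library, at -1.01 and -1.03.

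The genes of type V and XI, which regulate fibril diameter from inside mixed fibrils, parted from one another. Col5a1 (chr2:27886425-28039514), whose chain is needed for every common type V trimer, was at 408, 397 and 459.9 CPM in astrocytes, 367, 431 and 429.7 in mKate2- cells and 396, 282 and 392 in mKate2+ cells. Neither comparison called it, with -0.03 ± 0.12, adjusted p = 0.846 and -0.17 ± 0.15, adjusted p = 0.339. Its partner Col5a2 (chr1:45374321-45503282) was at 550.0, 531 and 411 CPM in astrocytes, but at 15.1, 19.8 and 23.3 in mKate2- and 19.3, 10.1 and 14.6 in mKate2+ cells. The groups lay far apart, and the gene was 25.4-fold lower in mKate2- cells (-4.67 ± 0.22, adjusted p = 6.79e-06) and 32.5-fold lower in mKate2+ cells (-5.02 ± 0.27, adjusted p = 1.10e-05). Col5a3, another type V chain, stood at 91.2, 42.9 and 41.7 CPM in astrocytes, with astrocyte replicate 1 about 2 times the others, at 1.84, 2.12 and 2.45 in mKate2- cells and at 2.14, 1.12 and 1.32 in mKate2+ cells. Both comparisons called it lower, with log2 fold changes of -4.77 ± 0.38, adjusted p = 4.12e-05 and -5.20 ± 0.43, adjusted p = 6.60e-05. Col11a1, whose chain can join those of type V, went from 53.4, 55.9 and 70.6 CPM in astrocytes to 7.39, 8.16 and 6.53 in mKate2- and 8.99, 5.83 and 7.46 in mKate2+ cells, a fall of 8.04-fold (-3.01 ± 0.16, adjusted p = 8.83e-06) and 7.69-fold (-2.94 ± 0.19, adjusted p = 2.47e-05).

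Col3a1 was 1 of the 2 collagen genes higher in the tumour cells. It encodes the only chain of type III, the collagen of thin reticular fibrils in vessel walls. Its levels were 13.1, 20.1 and 45.9 CPM in astrocytes, 60.4, 113 and 117 in mKate2- cells and 60.6, 53.5 and 90.6 in mKate2+ cells, without overlap between tumour cells and astrocytes. The fold was 3.72 in mKate2- cells (1.90 ± 0.45, adjusted p = 0.00746) and 2.73 in mKate2+ cells (1.45 ± 0.43, adjusted p = 0.0219). Without astrocyte replicate 3 the log2 fold changes were 2.54 and 2.09. The call in mKate2+ cells did not hold without astrocyte replicate 2 (adjusted p = 0.0779) or without mKate2+ replicate 3 (adjusted p = 0.0715). Col3a1 and Col5a2 are neighbours on chromosome 1 that are transcribed towards each other, with 24614 bases between their ends, and they differed from astrocytes in opposite directions. The bases before the Col3a1 start are shown because this gene and Col7a1 were the ones called higher, and capitals mark 3 motifs searched on both strands, the CCAAT box, the GC box GGGCGG and the TATA box TATAAA, none of whose matches overlapped in the stretches shown here. Start sites follow GENCODE M21, and sequences come from RefSeq promoter windows of GRCm38.p6, which 35 of the 44 genes have.
Col3a1, chr1:45311288-45311537, plus strand: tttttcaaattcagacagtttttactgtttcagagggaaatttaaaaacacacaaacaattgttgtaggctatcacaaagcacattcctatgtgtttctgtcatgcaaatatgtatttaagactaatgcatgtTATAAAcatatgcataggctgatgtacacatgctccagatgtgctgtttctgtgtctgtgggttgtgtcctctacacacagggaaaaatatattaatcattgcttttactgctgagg
Col7a1, chr9:108953336-108953585, plus strand: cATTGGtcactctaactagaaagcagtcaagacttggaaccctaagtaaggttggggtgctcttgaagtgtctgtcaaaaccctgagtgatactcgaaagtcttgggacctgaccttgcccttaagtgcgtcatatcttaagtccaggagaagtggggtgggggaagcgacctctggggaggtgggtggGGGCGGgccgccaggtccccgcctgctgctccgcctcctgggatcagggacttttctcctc
These 250 bases held 1 TATAAA before Col3a1, against 1 CCAAT (read on the other strand) and 1 GGGCGG before Col7a1. Among 32851 promoter windows, 12.4% had TATAAA, 33.8% had CCAAT and 32.7% had GGGCGG in the 250 bases before the start. A match describes the letters and not a site in use.

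Col7a1 encodes the single chain of type VII, which forms the fibrils that anchor epithelia to connective tissue. It was at 14.4, 19.3 and 17 CPM in astrocytes, 97.9, 92.1 and 92.3 in mKate2- cells and 82.9, 50.5 and 70.3 in mKate2+ cells. All 3 groups were separate, with mKate2- cells highest. Against astrocytes the fold was 5.63 in mKate2- cells (2.49 ± 0.13, adjusted p = 8.44e-06) and 4.21 in mKate2+ cells (2.07 ± 0.20, adjusted p = 1.15e-04).

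The remaining fibril-forming genes had low levels in SB28 cells. Col2a1, the cartilage collagen, was at 3.43, 2.63 and 69.3 CPM in astrocytes, where replicate 3 held nearly all of it, at 0.147, 0.334 and 0.235 in mKate2- cells and at 0.361, 0.204 and 0.468 in mKate2+ cells. It was called lower in both (-6.63 ± 1.52, adjusted p = 0.00603, and -6.11 ± 1.45, adjusted p = 0.0082), and DESeq2 called it in neither. Without astrocyte replicate 3 the log2 fold changes were -3.61 and -3.09, and it was still called. Col11a2 had levels of 0.532, 1.13 and 1.22 CPM in astrocytes and a total of 5 counts in the mKate2- and 1 count in the mKate2+ libraries, and it was called lower in both, although it did not pass the filter without astrocyte replicate 2 or 3. Col27a1, a type of developing cartilage, had means of 1.25 ± 0.881, 0.776 ± 0.202 and 0.901 ± 0.142 CPM (SD, n = 3) and was called in neither, although without astrocyte replicate 2 it was called lower in mKate2- cells (log2 fold change -1.17). The last fibril-forming gene, Col24a1, had at most 18 counts in a library.

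**Figure D3:**
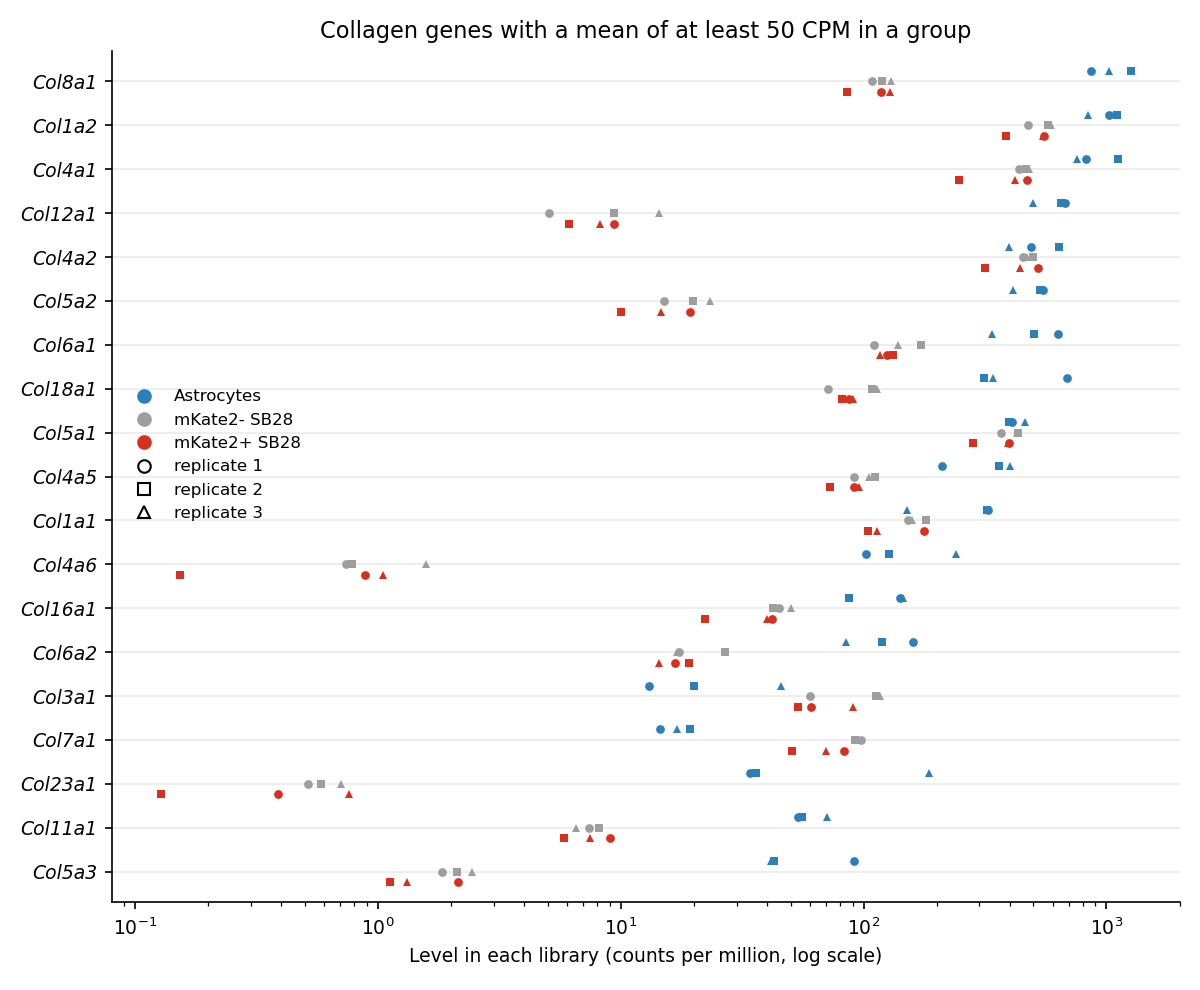
Level in CPM (log axis) of the 19 collagen genes with a mean of at least 50 CPM in a group, in each library of astrocytes (blue), mKate2- (grey) and mKate2+ (red) SB28 cells, with symbol shapes for replicates. Col12a1, Col5a2, Col4a6, Col23a1 and Col5a3 show wide gaps between astrocytes and tumour cells, and Col5a1 and Col4a2 show none.

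Type IV genes, which come in head-to-head pairs, followed no common course. Col4a1 and Col4a2 encode the ubiquitous chains of basement membranes, and the first 22 bases of both genes overlap on chromosome 8, shown because the genes leave it in opposite directions and had unequal changes. The GGGCGG motif read on the other strand stands in capitals, a match that 4.09% of promoter windows had in the first 22 bases from the start on.
Col4a1 and Col4a2, chr8:11312805-11312826, minus strand: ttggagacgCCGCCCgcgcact
Col4a1 was at 826, 1115 and 758 CPM in astrocytes, 435, 465 and 481 in mKate2- cells and 472, 247 and 421 in mKate2+ cells. All tumour libraries were below all astrocyte libraries. The log2 fold change was -0.95 ± 0.16, adjusted p = 0.0013 in mKate2- cells, where it was not called, and -1.18 ± 0.25, adjusted p = 0.00466 in mKate2+ cells, where it was. These calls rest close to the threshold, since Col4a1 was called in mKate2- cells without astrocyte replicate 1 or without replicate 3 (-1.07), under upper-quartile scaling (-1.03) and with 10 counts required in every library (-1.03), and not called in mKate2+ cells without mKate2+ replicate 2 (-0.96). Col4a2 was at 488, 637 and 397 CPM in astrocytes, 452, 499 and 473 in mKate2- cells and 520.5, 317 and 439.8 in mKate2+ cells, which overlapped. Its log2 fold changes of -0.08 ± 0.17, adjusted p = 0.698 and -0.19 ± 0.22, adjusted p = 0.489 were not called. Reads in the 22 shared bases cannot be given to one gene or the other where strand was not used, which the sources used here do not state.

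Col4a5 and Col4a6 lie head to head on the X chromosome with 1308 bases between their start sites, and their chains share a trimer of smooth muscle and epithelial basement membranes. Col4a5 was at 209, 359.8 and 402 CPM in astrocytes, 91, 111 and 105 in mKate2- cells and 91.3, 72.5 and 95.4 in mKate2+ cells. It was 3.11-fold lower in mKate2- (-1.64 ± 0.22, adjusted p = 4.80e-04) and 3.56-fold lower in mKate2+ cells (-1.83 ± 0.24, adjusted p = 4.67e-04), with no overlap. Col4a6 was at 103, 127 and 241 CPM in astrocytes, with replicate 3 highest, but at 0.736, 0.78 and 1.58 in mKate2- cells and 0.888, 0.153 and 1.05 in mKate2+ cells. It was 150.2-fold (-7.23 ± 0.46, adjusted p = 1.56e-05) and 217-fold lower (-7.76 ± 0.62, adjusted p = 5.48e-05), having passed the filter through astrocytes alone. These folds rest on 20, 28 and 47 counts in the mKate2- libraries and 32, 6 and 36 in the mKate2+ libraries, so their size is uncertain. The bases before both starts are given for this contrast between neighbours, with the same 3 motifs in capitals.
Col4a6, chrX:141474077-141474326, minus strand: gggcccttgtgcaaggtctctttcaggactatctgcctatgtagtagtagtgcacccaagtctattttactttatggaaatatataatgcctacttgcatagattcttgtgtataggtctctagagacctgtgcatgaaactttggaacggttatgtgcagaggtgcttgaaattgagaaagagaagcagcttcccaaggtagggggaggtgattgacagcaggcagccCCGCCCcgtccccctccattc
Col4a5, chrX:141475169-141475384, plus strand: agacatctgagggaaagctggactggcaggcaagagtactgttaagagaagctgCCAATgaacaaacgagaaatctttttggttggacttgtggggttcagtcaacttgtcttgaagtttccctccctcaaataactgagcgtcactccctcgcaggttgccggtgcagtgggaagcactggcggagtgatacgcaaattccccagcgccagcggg
The 250 bases before Col4a6 held 1 GGGCGG on the other strand and had a GC content of 47.6%. The 216 bases before Col4a5 held 1 CCAAT, which 30.8% of windows had at that length, and had a GC content of 52.3%. The last pair, Col4a3 and Col4a4 on chromosome 1, encodes chains of the mature kidney filter and stayed below 2 CPM in every library. Col4a3 had means of 0.695 ± 1.12, 0.211 ± 0.189 and 0.153 ± 0.0846 CPM (SD, n = 3), and Col4a4 had 0.721 ± 1.002, 0.489 ± 0.0605 and 0.215 ± 0.12, with the astrocyte values carried by replicate 3.

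Col8a1, the main chain of a short-chain network collagen of vessels and cornea, had the highest mean CPM of the collagen genes in astrocytes. In astrocyte replicate 1, Col1a2 was higher, at 1023 CPM. Col8a1 lies at chr16:57624258-57754737. Its levels were 864, 1265 and 1028 CPM in astrocytes, 108, 119 and 129 in mKate2- cells and 118, 85.6 and 128 in mKate2+ cells. The tumour cells were 8.75-fold (-3.13 ± 0.16, adjusted p = 8.73e-06) and 9.06-fold lower (-3.18 ± 0.20, adjusted p = 2.18e-05), and no libraries overlapped. Per kilobase of transcript, which allows genes to be compared, Col8a1 led in astrocytes at a mean of 206 CPM per kilobase, ahead of Col1a2 at 185, and was seventh in both tumour groups at 23.3 and 21.6, where Col1a2 led at 102 and 93. The stretch before its start is shown as that of the leading astrocyte gene.
Col8a1, chr16:57754738-57754987, minus strand: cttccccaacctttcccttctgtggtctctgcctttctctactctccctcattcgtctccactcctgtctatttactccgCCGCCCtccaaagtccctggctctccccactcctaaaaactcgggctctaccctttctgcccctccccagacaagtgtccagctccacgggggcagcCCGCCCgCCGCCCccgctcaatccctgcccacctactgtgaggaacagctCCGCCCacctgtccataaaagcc
It held 4 GGGCGG matches, all on the other strand. Its partner chain Col8a2 had at most 35 counts in a library.

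The FACIT genes that were tested had lower levels in SB28 cells than in astrocytes. Of 9 members of this class, 5 were tested and all 5 were lower in both comparisons. The share of all genes called lower was 22.4% in mKate2- and 22.8% in mKate2+ cells. All but Col12a1 and Col16a1 passed the filter through astrocytes alone. Of all genes that did so, 90.9% were lower in mKate2- and 89.8% in mKate2+ cells. Col12a1 (chr9:79598991-79718831), whose protein bridges type I fibrils and other matrix, was at 674, 649 and 497 CPM in astrocytes, 5.08, 9.36 and 14.4 in mKate2- cells and 9.38, 6.13 and 8.22 in mKate2+ cells. It was 62.5-fold lower in mKate2- cells (-5.97 ± 0.40, adjusted p = 1.92e-05) and 73.2-fold lower in mKate2+ cells (-6.19 ± 0.23, adjusted p = 5.04e-06). Col16a1, found near fibrils and cell surfaces, was at 141, 87 and 145 CPM in astrocytes, 44.7, 42.3 and 50.03 in mKate2- cells and 41.9, 22.2 and 39.8 in mKate2+ cells. Its fall was smaller, at 2.7-fold (-1.44 ± 0.20, adjusted p = 5.85e-04) and 3.44-fold (-1.78 ± 0.28, adjusted p = 0.00116). Type IX, which decorates cartilage fibrils, was represented by Col9a1 at 6.46, 3.55 and 6.01 CPM and Col9a3 at 2.33, 1.62 and 2.56 CPM in astrocytes, both at 0.235 CPM or less in every tumour library and both called lower. Their partner chain, Col9a2, reached at most 14 counts. Col20a1 was lower as well, at a mean of 1.42 ± 0.33 CPM in astrocytes, 0.242 ± 0.0768 in mKate2- and 0.201 ± 0.116 in mKate2+ cells (SD, n = 3), although it overlaps another annotated gene. Col22a1 did not pass the filter, at 0.941, 0.52 and 4.98 CPM in astrocytes.

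Type VI genes build beaded microfibrils around cells, and the 3 that were tested were lower in both tumour groups. Of all genes that passed the filter in both cell types, as these 3 did, 12.9% were lower in mKate2- and 13.1% in mKate2+ cells. Col6a1 was at 629, 503 and 336 CPM in astrocytes, 111, 172 and 138 in mKate2- cells and 125, 132 and 116 in mKate2+ cells. Its fold was 3.47 (-1.80 ± 0.26, adjusted p = 6.87e-04) and 3.74 (-1.90 ± 0.24, adjusted p = 4.01e-04). Col6a2 was at 159, 119 and 84.9 CPM in astrocytes, 17.4, 26.7 and 17 in mKate2- cells and 16.7, 19 and 14.4 in mKate2+ cells, lower by 5.89-fold (-2.56 ± 0.29, adjusted p = 1.84e-04) and 6.87-fold (-2.78 ± 0.26, adjusted p = 1.15e-04). Both lie on chromosome 10, and for both the libraries of the cell types did not overlap. Col6a3, the long chain of the usual trimer, was far less abundant, at 16.5, 6.54 and 15.9 CPM in astrocytes, 2.91, 5.6 and 3.72 in mKate2- cells and 3.02, 4.48 and 3.34 in mKate2+ cells, with log2 fold changes of -1.65 ± 0.41, adjusted p = 0.00865 and -1.76 ± 0.39, adjusted p = 0.00607, both called lower. Col6a4, Col6a5 and Col6a6, which encode alternatives to that long chain, had at most 14, 5 and 3 counts in a library.

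Both multiplexin genes and 1 transmembrane gene were called lower in SB28 cells, where 22.4% (mKate2-) and 22.8% (mKate2+) of all genes were lower. Of these collagen genes, Col15a1 and Col23a1 passed the filter through astrocytes alone. Col18a1, the basement membrane collagen whose end gives endostatin, was at 687, 314 and 340.1 CPM in astrocytes, with replicate 1 about 2 times the others, 71.5, 108 and 114 in mKate2- cells and 86.8, 81.8 and 90.04 in mKate2+ cells. The fold was 4.55 (-2.19 ± 0.35, adjusted p = 9.95e-04) and 4.95 (-2.31 ± 0.31, adjusted p = 5.84e-04). Col18a1 overlaps Slc19a1 on the other strand, and their reads cannot be told apart there without strand. Its relative Col15a1 was at 1.55, 8.44 and 17 CPM in astrocytes and had means of 0.487 ± 0.286 and 0.416 ± 0.105 CPM (SD, n = 3) in the tumour cells. Col23a1, a collagen that spans the plasma membrane, was at 34.2, 35.9 and 185 CPM in astrocytes, where replicate 3 stood apart, 0.515, 0.585 and 0.704 in mKate2- cells and 0.388, 0.127 and 0.761 in mKate2+ cells. It was lower in both, with a log2 fold change of -7.11 ± 0.85, adjusted p = 2.49e-04 and -7.59 ± 0.97, adjusted p = 4.36e-04, which became -5.85 and -6.34 without astrocyte replicate 3, and -8.28 in mKate2+ cells without mKate2+ replicate 3. The other transmembrane genes, Col13a1, Col17a1 and Col25a1, did not pass the filter.

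The 17 collagen genes that did not pass the filter were low in every library or high in 1 astrocyte library alone. Col10a1, Col13a1, Col19a1 and Col6a6 had 3 counts or fewer in each library, and Col26a1 had 0 counts in all 6 tumour libraries and at most 11 in an astrocyte library. A count of 0 allows up to 3 counts, and this limit covers counting error only. Col14a1, a FACIT gene, had at most 6 counts, while Col17a1, Col25a1 and Col28a1 had at most 13, 49 and 90. In all, 28 of the 44 genes had a mean of at least 1 CPM in a group, and 19 had at least 50 CPM.

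Astrocyte libraries differed from one another for some members. Replicate 3 had 4 of the 27 tested genes (Col2a1, Col3a1, Col15a1 and Col23a1) at 2 or more times both other astrocyte libraries, beside 4.35% of all genes tested. Replicate 1 had 2 such genes (Col18a1 and Col5a3), beside 0.614% of all genes, and replicate 2 had 0, beside 0.621%. At 0.5 times both others or less were Col11a2 and Col15a1 in replicate 1 (4.09% of all genes), Col27a1 and Col6a3 in replicate 2 (1.02%) and Col1a1 in replicate 3 (1.00%).

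Chains that assemble together were compared as ratios of CPM per kilobase of their longest transcript. The ratio of Col5a2 to Col5a1 was 1.71, 1.7 and 1.13 in the astrocyte libraries, 0.0522, 0.0582 and 0.0689 in the mKate2- libraries and 0.0618, 0.0453 and 0.0472 in the mKate2+ libraries. Astrocytes thus had more Col5a2 than Col5a1 mRNA per length, whereas tumour cells had a small part of it. The ratio of Col4a6 to Col4a5 was 0.482, 0.347 and 0.59 in astrocytes, 0.00795, 0.00688 and 0.0147 in mKate2- cells and 0.00955, 0.00207 and 0.0109 in mKate2+ cells. Col4a1 exceeded Col4a2 in astrocytes, with ratios of 1.65, 1.71 and 1.86, and was below it in tumour cells, with 0.939, 0.909 and 0.992 in mKate2- and 0.884, 0.76 and 0.934 in mKate2+ libraries. The ratio of Col6a2 to Col6a1 had means of 0.218 ± 0.00821, 0.128 ± 0.0169 and 0.118 ± 0.00898 (SD, n = 3) in astrocytes, mKate2- and mKate2+ cells. These 4 ratios, and those of Col5a3 and Col11a1 to Col5a1, did not overlap between astrocytes and either tumour group (exact permutation test, two-sided, p = 0.1, the smallest possible). Col1a1 to Col1a2 had overlapping values, with means of 0.237 ± 0.0661, 0.272 ± 0.0264 and 0.239 ± 0.0512, and so did Col6a3 to Col6a1, at 0.0117 ± 0.00698, 0.0116 ± 0.00143 and 0.0117 ± 0.00199. In all, 8 ratios were computed, none could pass an adjusted threshold of 0.05 in a design of this size, and between mKate2+ and mKate2- cells their exact permutation p ranged from 0.2 to 1.

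**Figure D4:**
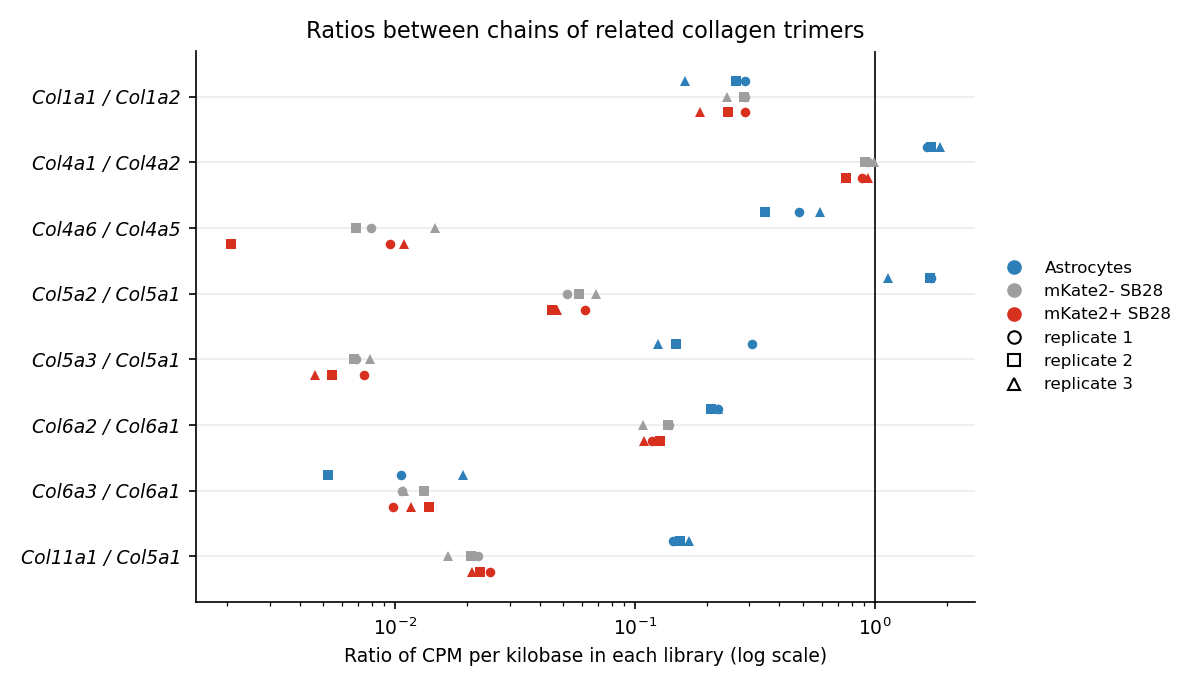
Ratio of CPM per kilobase between 8 pairs of chains, in each of the 9 libraries (log axis), with astrocytes in blue, mKate2- cells in grey and mKate2+ cells in red. For 6 pairs the astrocyte ratios lie to the right of all tumour ratios, and for Col1a1 to Col1a2 and Col6a3 to Col6a1 they overlap.

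The comparison of mKate2+ with mKate2- cells asks whether tumour cells that took up astrocyte mitochondria differ from those that did not. Of 44 collagen genes, 19 were tested, and edgeR called 0 higher and 0 lower at a fold above 1.5, an unadjusted p below 0.05 and a mean normalized count above 50. Over all genes these criteria called 0.194% higher and 0.169% lower, and 0% had an adjusted p below 0.05. DESeq2 also called 0 collagen genes and gave 1 of them, Col7a1, an unadjusted p below 0.05. The log2 fold change was below 0 for 18 of the 19 and for 49.1% of all genes, with a median of -0.23 against 0.0033 over all genes. All 3 mKate2+ libraries lay below all mKate2- libraries for 2 of them (6.67% of all genes) and above for 0 (2.16%).

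Col7a1 had the smallest p of the 19 and was the only one under 0.05 before adjustment. Its fold change was -0.43 ± 0.14 on the log2 scale (edgeR, unadjusted p = 0.0159, adjusted p = 0.923). Mean levels were 67.9 ± 16.3 CPM in mKate2+ and 94.1 ± 3.3 CPM in mKate2- cells (SD, n = 3). Col4a5 came next, at -0.20 ± 0.11 (edgeR, unadjusted p = 0.0957, adjusted p = 0.923). Col16a1 followed, at -0.36 ± 0.19 (edgeR, unadjusted p = 0.101, adjusted p = 0.923). With 1 library left out at a time, the log2 fold change ran from -0.58 to -0.29 for Col7a1. It ran from -0.28 to -0.13 for Col4a5 and from -0.50 to -0.16 for Col16a1. The 2 genes with separate groups were Col7a1 and Col16a1. Adjusted p values of the 19 ranged from 0.923 to 0.970.

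One library stood apart in this comparison. mKate2+ replicate 2 was the lowest of the 6 tumour libraries for 14 of the 19 genes, and it was the lowest for 47.3% of all genes tested. On a log2(CPM + 0.1) scale it lay a median of -0.51 from the mean of the other 5 libraries for collagen genes and -0.13 for all genes. Replicates 2 and 3 of the mKate2- cells lay above the others, at 0.26 and 0.23. Without mKate2+ replicate 2, the median log2 fold change of the collagen genes was -0.14, and the difference in their share of counts went from -0.0393 to -0.0122 percentage points. Leaving out other libraries added calls of lower genes that rested on the unadjusted p of edgeR. These were Col3a1 without mKate2- replicate 1 (log2 fold change -0.70, adjusted p = 0.990) or mKate2+ replicate 3 (-0.71, adjusted p = 0.771). The others were Col5a2 (-0.59) and Col5a3 (-0.74) without mKate2+ replicate 1, each with adjusted p = 0.639. The share of all genes called in these fits is not given here. The collagen genes tested were long, with a median exonic length of 7973 bases against 4457 for all genes. After the dependence on gene length was taken out of every library, the median was -0.14 and the number of calls was still 0.

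**Figure D5:**
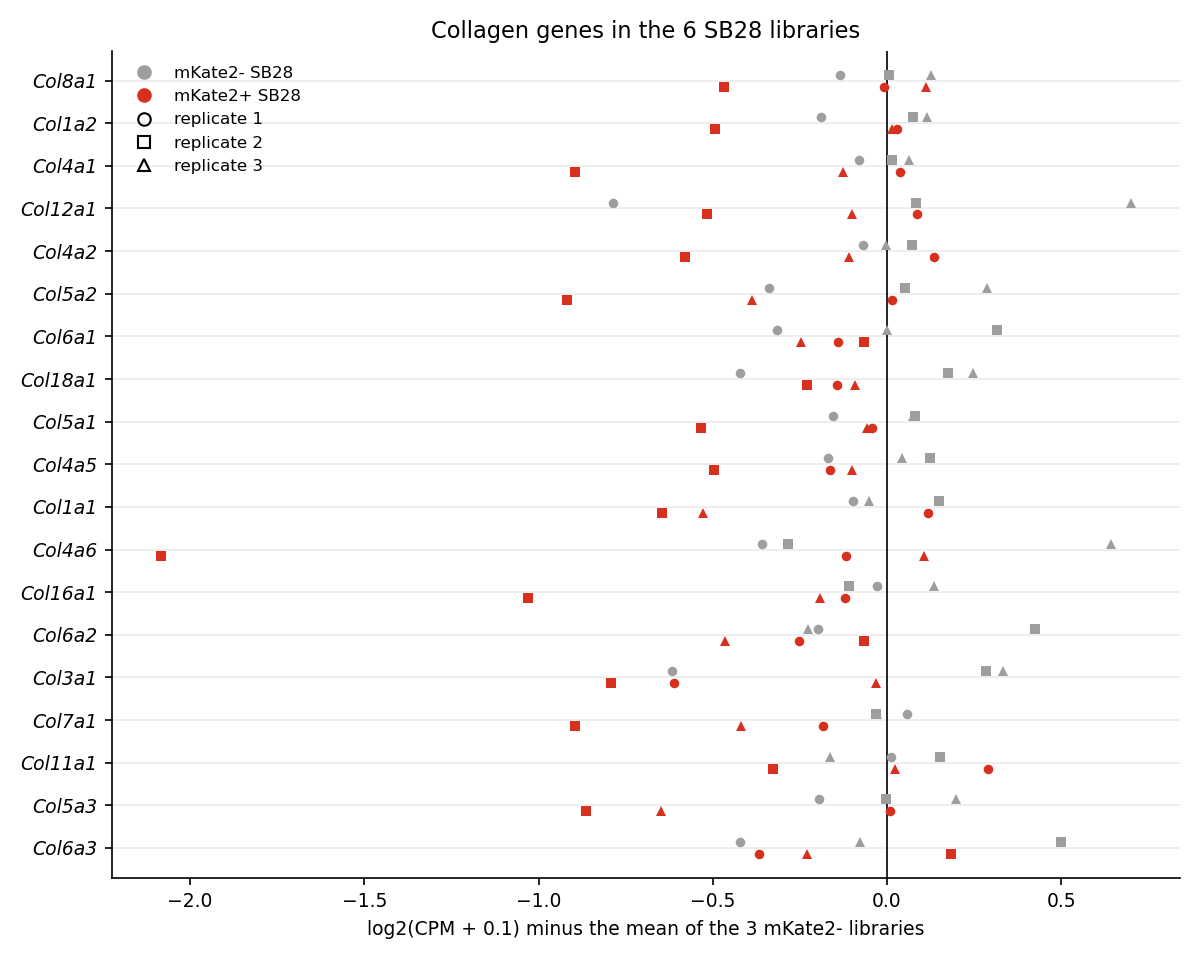
Level of the 19 collagen genes tested in each SB28 library, as log2(CPM + 0.1) minus the mean of the 3 mKate2- libraries (grey), with mKate2+ libraries in red and symbol shapes for replicates. The squares of mKate2+ replicate 2 lie left of the other libraries for 14 genes.

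A further list held 52 genes whose proteins modify, export, cut, cross-link or bind collagen. Of these, 45 were tested, and in each comparison with astrocytes 13 were lower and 3 higher, or 28.9% and 6.67% of those tested, where all genes had 22.4% lower and 11.5% higher in mKate2- cells and 22.8% and 12.2% in mKate2+ cells. Between mKate2+ and mKate2- cells, 40 were tested, 0 were called by edgeR or DESeq2, and 0 had an unadjusted p below 0.05 by edgeR. Of the lower genes, 5 (Colgalt2, Adamts3, Itga11, Fmod and Comp) passed the filter through astrocytes alone. Of all genes that passed in this way, 90.9% were lower in mKate2- and 89.8% in mKate2+ cells. Among the 40 that passed in both cell types, 8 were lower (20% against 12.9% and 13.1% of all such genes in mKate2- and mKate2+ cells) and 3 higher (7.5% against 12.1% and 13.1%).

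Most enzymes and chaperones of collagen folding were not called. Among all genes tested, 22.4% were lower and 11.5% higher in mKate2- cells, and 22.8% and 12.2% in mKate2+ cells. In prolyl hydroxylation, 2 of 10 genes were lower in both tumour groups. These were P4ha3, a catalytic subunit of prolyl 4-hydroxylase (37.6 ± 10.3 CPM in astrocytes, 7.51 ± 1.09 in mKate2- and 7.06 ± 1.54 in mKate2+ cells, SD, n = 3), and P3h3, a prolyl 3-hydroxylase family member (78 ± 4.97, 12.5 ± 0.46 and 10.5 ± 0.154 CPM). The most abundant gene of that role, P4hb, was at 799.9 ± 43.3, 1217 ± 58.1 and 1224 ± 41.7 CPM, with a log2 fold change of 0.62 and 0.69 that was under the threshold of 1. Serpinh1, the collagen chaperone HSP47, was at 816 ± 11.3, 972 ± 4.77 and 1034 ± 53.7 CPM and was not called either. Sec24d, part of the coat that carries procollagen out of the endoplasmic reticulum, was higher in both, from 133 ± 17.8 CPM in astrocytes to 316 ± 18.9 and 304 ± 23.9. Among lysyl hydroxylation and glycosylation genes, Colgalt2 was the 1 of 5 called, at 5.82 ± 1.51 CPM in astrocytes and below 0.05 in the tumour means, and among propeptide processing genes Adamts3 was the 1 of 5 tested that was called, from 1.31 ± 0.906 CPM in astrocytes. Adamts3 did not pass the filter without astrocyte replicate 2 or 3, and its mean without replicate 3 was 0.816 CPM.

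Of 5 cross-linking genes, 2 were lower, 1 was higher and 2 were not called in both comparisons. All genes tested had 22.4% lower and 11.5% higher in mKate2- cells, and 22.8% and 12.2% in mKate2+ cells. Loxl1, a lysyl oxidase relative, fell from 308 ± 109 CPM in astrocytes to 4.49 ± 2.77 in mKate2- and 3.72 ± 0.784 in mKate2+ cells (log2 fold change -6.10 ± 0.50, adjusted p = 4.58e-05, and -6.30 ± 0.35, adjusted p = 1.39e-05). Loxl2 was lower too, at 24.2 ± 15.6, 7.54 ± 1.09 and 6.46 ± 1.31 CPM. Loxl4 was higher, at 25.6 ± 5.89 CPM in astrocytes, 99.4 ± 17.8 in mKate2- and 88.8 ± 8.15 in mKate2+ cells (1.97 ± 0.19, adjusted p = 1.04e-04, and 1.87 ± 0.18, adjusted p = 1.36e-04). Those not called were Loxl3, at 134 ± 4.02, 104 ± 12.7 and 95.4 ± 0.966 CPM, and Lox, at 18.3 ± 15.2, 11.7 ± 5.58 and 11.6 ± 3.75 CPM. Single libraries weighed on 3 of these means, which were 15.3 CPM for Loxl2 without astrocyte replicate 3, 10.3 for Lox without astrocyte replicate 2 and 2.89 for Loxl1 without mKate2- replicate 3.

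Of 8 collagen receptor genes tested, 3 were lower and 1 higher. Over all genes, 22.4% were lower and 11.5% higher in mKate2- cells, and 22.8% and 12.2% in mKate2+ cells. Of the lower receptor genes, Itga11 passed the filter through astrocytes alone. The receptor kinase Ddr1 was at 474 ± 68.4 CPM in astrocytes, 157 ± 15.8 in mKate2- and 171 ± 10.9 in mKate2+ cells (-1.58 ± 0.14, adjusted p = 5.78e-05, and -1.39 ± 0.15, adjusted p = 1.95e-04). Its relative Ddr2 was at 140.0 ± 14.8, 220.5 ± 6.35 and 205 ± 18.5 CPM. It was not called, because its log2 fold changes of 0.67 and 0.62 (edgeR, adjusted p = 8.52e-04 and 0.0031) were under the threshold of 1. The collagen-binding integrin chains Itga1 (65 ± 44.9, 14.3 ± 0.797 and 12 ± 2.52 CPM) and Itga11 (41.9 ± 30.2, 0.411 ± 0.168 and 0.194 ± 0.0407 CPM) were lower, and Itga10 (3.21 ± 0.717, 7.17 ± 2.42 and 6.34 ± 0.806 CPM) was higher. Single astrocyte libraries carried much of the first 2 means, with Itga1 at 29.9, 49.6 and 116 CPM (39.7 without replicate 3) and Itga11 at 34.8, 75.1 and 16 CPM (25.4 without replicate 2). Both were called lower with each library left out in turn. Itga10 was not called in mKate2- cells without mKate2- replicate 2 (log2 fold change 0.86), nor in mKate2+ cells without astrocyte replicate 1 (0.91) or mKate2+ replicate 2 (0.98). Of 6 tested genes for proteins that lie on fibrils, 4 were lower in both tumour groups, where 22.4% and 22.8% of all genes were lower. Fn1, fibronectin, was at 3929.5 ± 1414 CPM in astrocytes, 833 ± 159 in mKate2- and 767 ± 109 in mKate2+ cells, and Sparc, a collagen-binding secreted protein, was at 5516 ± 768, 1956 ± 49.4 and 2143 ± 218. Fmod, fibromodulin, and Comp were the others, at 11.1 ± 3.54 and 1.62 ± 0.66 CPM in astrocytes, the only group through which they passed the filter.

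Markers of the labelled cells and of other collagen-making cells were read beside these values. Astrocyte markers were lower in SB28 cells for 8 of 12 genes, of which 10 were tested, where 22.4% and 22.8% of all genes were lower. Of the 8, Aqp4, Atp1b2, Fgfr3, Gfap and Slc1a2 passed the filter through astrocytes alone in both comparisons, as did Slc1a3 in that of mKate2+ cells, and Aldh1l1 and Aldoc passed in both cell types. The 12 genes summed to 802, 792 and 1475 CPM in the astrocyte libraries, 329.6, 407 and 374 in mKate2- and 356, 391 and 375 in mKate2+ libraries. Gja1 had the highest mean of them in each group, at 198 ± 26.3 CPM in astrocytes, 265 ± 21.2 in mKate2- and 276 ± 10.6 in mKate2+ cells. Its log2 fold changes of 0.43 and 0.55 (edgeR, adjusted p = 0.0156 and 0.00807) were above 0 but under the threshold of 1. In astrocyte replicates 1 and 3, Slc1a3 was higher than Gja1, at 173 and 236 CPM. Gjb6 was at 0 in every library, S100b did not pass the filter, and Gfap was at 8.83, 3.42 and 19.4 CPM in astrocytes. Astrocyte replicate 3 had the highest sum, with Aldoc at 55.6, 33.8 and 362 CPM in the astrocyte libraries. Among these libraries it also had the most Col2a1, Col4a6 and Col23a1. It had the least Col1a1, Col1a2, Col5a2 and Col12a1 of them, and the lowest collagen share, at 0.658%. The part of these differences in the results was not tested.

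Fibroblast and meningeal markers were lower for 5 of 12 genes, of which 8 were tested, in both tumour groups. They were higher for 2 in mKate2- cells (Foxd1 and Crabp2) and 1 in mKate2+ cells (Foxd1). Of all genes tested, 22.4% were lower and 11.5% higher in mKate2- cells, and 22.8% and 12.2% in mKate2+ cells. Crabp2 (0.919 ± 0.417 CPM in astrocytes and 2.21 ± 0.248 in mKate2- cells) passed the filter through the tumour cells alone, and it was not called without astrocyte replicate 3 or without mKate2- replicate 1 or 3. The lower genes were Twist1 and, past the filter through astrocytes alone, Foxc2, Mgp, Ogn and Aldh1a2, with astrocyte means of 119 ± 30.1, 16.8 ± 12.9, 32.8 ± 23.9, 14.6 ± 11.8 and 7.13 ± 5.78 CPM (SD, n = 3). Without astrocyte replicate 3 the means of Mgp and Ogn were 19.9 and 8.51 CPM, and without replicate 1 that of Aldh1a2 was 3.84. Foxc1 was not called, at 73.6 ± 33.7 CPM in astrocytes, 41 ± 2.38 in mKate2- and 42.6 ± 2.57 in mKate2+ cells, but was called lower in mKate2- cells without astrocyte replicate 1 (log2 fold change -1.05). They summed to 244, 274 and 293 CPM in astrocytes, 123, 119.9 and 112 in mKate2- and 116, 147 and 112 in mKate2+ libraries. Twist1 was the most abundant, Slc6a13 had 3 counts or fewer in every library, and Dcn, Lum and Dpt were at or below 2.45 CPM in each. Dcn, Lum and Dpt are also in the list of fibril-bound proteins. Pericyte and smooth muscle markers summed to 125, 147 and 211 CPM in astrocytes, 53.4, 68.1 and 74.8 in mKate2- and 64.3, 64.5 and 75.8 in mKate2+ libraries. Acta2 had the highest mean in astrocytes, at 92.5 CPM, and Pdgfrb in mKate2- and mKate2+ cells, at 52.4 and 52.3 CPM. Higd1b was at 3 counts or fewer, and 1 of 10 genes (3 tested), Acta2, was called lower. The part of fibroblast, meningeal, pericyte and smooth muscle cells in the collagen values was not tested.

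Endothelial markers summed to 20.5, 33.5 and 210.2 CPM in astrocytes, 50.3, 61.4 and 58.5 in mKate2- and 54.9, 48.6 and 56.8 in mKate2+ libraries, and 1 of 10 (3 tested), Esam, was lower in both, past the filter through astrocytes alone. Flt1 had the highest mean in each group, at 5.64, 12.4 and 192 CPM in astrocytes, where replicate 3 stood apart. In astrocyte replicates 1 and 2, Esam was higher, at 12.8 and 19 CPM. Without astrocyte replicate 3, Flt1 was called higher in both tumour groups (2.61 and 2.57 on the log2 scale). Cldn5, Tie1 and Emcn had 3 counts or fewer everywhere. Microglia and macrophage markers summed to 40.7, 29.2 and 31.4 CPM in astrocytes, 47.6, 51.6 and 56.7 in mKate2- and 50.1, 61.3 and 51.1 in mKate2+ libraries, most of it Tmem119, with Cx3cr1 and C1qb at 3 counts or fewer and 1 of 10 genes (2 tested), P2ry12, lower, again past the filter through astrocytes alone, which it did not pass without astrocyte replicate 1 or 2. Oligodendrocyte lineage markers summed to 983, 542 and 612 CPM in astrocytes, 39.1, 45.7 and 48.6 in mKate2- and 42.6, 44.3 and 40.1 in mKate2+ libraries. Olig1 led in astrocytes, at a mean of 362 CPM, and Cnp in mKate2- and mKate2+ cells, at 22.2 and 23.6 CPM. Sox10 and Mag had 3 counts or fewer. Lower were 4 of 10 genes (Olig1, Olig2, Cspg4 and Cnp, of 6 tested). Of these, Olig2 passed the filter through astrocytes alone in the comparison of mKate2+ cells. Beside these lists, 22.4% of all genes tested were lower in mKate2- and 22.8% in mKate2+ cells. The part of endothelial, microglia, macrophage and oligodendrocyte lineage cells in the collagen values was not tested. In mKate2+ against mKate2- cells, 0 markers of any list were called by edgeR, and 0 had an unadjusted p below 0.05. Without mKate2- replicate 3 or without mKate2+ replicate 1, Acta2 was called higher on the unadjusted p (0.75 and 0.64 on the log2 scale). The adjusted p of edgeR in these fits was 0.995 and 0.639.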

How the data were processed

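RNA of 3 groups, each of 3 libraries, was sequenced by a commercial provider. Per the labels, the authors trimmed reads with Trimmomatic 0.36, aligned them with STAR 2.5.2b to GRCm38 and counted them per gene with featureCounts of Subread 1.5.2. The deposited values are raw counts of 49315 Ensembl gene IDs, of which 49056 were named from GENCODE M21. The strand setting of the count and its annotation release are not given in the sources used here. The sorting gates in the design text disagree with the dyes it describes, so groups were taken from sample titles.

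CPM is the count divided by a library's total and scaled to 1e+06, and CPM per kilobase divides it by the longest protein-coding transcript. Genes above 1 CPM in at least 2 libraries compared were tested on the counts as deposited with edgeR 4.0.16 in R 4.3.3 (TMM scaling, quasi-likelihood test, Benjamini-Hochberg adjustment over all genes), each pair of groups in its own fit, and SE is the absolute log2 fold change over the square root of F. Calls against astrocytes needed an absolute log2 fold change above 1 with an adjusted p below 0.05, and calls between tumour cells needed a fold above 1.5, p below 0.05 and a mean normalized count above 50, after the study's own criteria. Shares and ratios between chains were tested by two-sided exact permutation. The fitting steps were tested on simulated data with known changes. Alternatives were DESeq2 1.42.0, upper-quartile scaling, other filters, 1 fit of all 9 libraries, a replicate block, removal of a length trend (loess, span 0.3) and leaving out each library.

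Named collagen genes were those with a mean of at least 50 CPM in a group, of the others the 4 most changed per direction, the 3 with the smallest p between tumour cells and partner chains of these, with the rest given by counts. Named assembly genes were those called, and markers were the most abundant and the near-absent of each list, while other genes named were chosen after their values were seen. The members and lists were chosen with earlier results of these data known.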

Additional observations from a re-analysis of the deposited data

How the results depend on the processing

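Counts of called collagen genes stayed within 1.5 times their values under DESeq2 (2 higher and 18 lower for mKate2-, 2 and 19 for mKate2+, 0 and 0 between tumour cells), upper-quartile scaling (20 and 22 lower, with Col4a1 added in mKate2- and both type I genes in mKate2+ cells), the fit of all 9 libraries and removal of the length trend. Requiring 10 counts in every library left 14 and 15 lower, and 8 lower genes of the assembly and receptor list in each comparison with astrocytes, because fewer genes low in tumour cells were tested. The same filter moved the median log2 fold change of the collagen genes to -1.80 in mKate2- and -1.92 in mKate2+ cells, and no filter moved it to -2.16 in mKate2- cells. Weighting by exon length made the difference in collagen share -0.208 and -0.233 percentage points of length-scaled signal, with the same direction. Leaving out 1 library at a time gave 1 to 2 higher genes in mKate2+ cells against astrocytes and 0 to 2 lower genes between tumour cells. The latter had edgeR adjusted p of 0.639 to 0.990. Apart from the run with no filter, the share of all genes called under each alternative is not given here. These counts therefore show only how the calls moved. The difference in collagen share between tumour cells ran from -0.0576 to -0.0122 points. Near 0, Col4a2 in mKate2- cells ran from -0.24 to 0.087 over the libraries left out (the latter without astrocyte replicate 2), and Col5a1, from -0.092 to 0.049, turned to 0.027 with no filter, 0.0058 with the length trend removed, 0.028 without astrocyte replicate 3 and 0.049 without mKate2- replicate 1, and the cause was not tested. The groups share their 3 co-cultures, but no source says that libraries with the same number share one. Same-numbered libraries had correlations of -0.147 to 0.251 in their deviations from group means, and differently numbered libraries -0.275 to 0.252. Between mKate2- and mKate2+ cells the same-numbered values were -0.0037, 0.136 and 0.170, and the others ran from -0.178 to 0.082. These ranges overlap and do not settle whether the numbers are pairs. For want of a source, the numbers were not taken as pairs in the main fits. With the replicate block the counts were 2 higher and 19 lower, 2 and 20, and 0 and 0, with medians of -2.53, -2.74 and -0.20. Upper-quartile scaling shifted the median of all genes by -0.080, -0.099 and -0.008. Genes with few counts in tumour cells have folds that depend on the prior count.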
